A study of Mus musculus with 12 samples.

Results

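Interferon response genes were followed in erythroid precursor cells of the mouse spleen, sorted as cells positive for the red cell lineage antigen Ter119 with high CD71, the transferrin receptor. The group was given as a list of 42 gene symbols: interferon receptors and signal transducers, interferon regulatory factors, sensors of foreign nucleic acid, antiviral effectors, interferon-inducible GTPases and 1 chemokine. A gene was measured by a probe set annotated to that symbol alone, and the probe set with the highest mean over the arrays was taken. By that rule 38 of the 42 had a probe set, among 19938 genes that had one, and 33 of them lay above a filter on dim probe sets and entered the tests. The tests covered 12980 genes. The mice, 3 months old, carried a double knockout of E2f8 and Rb (DKO), a knockout of E2f8 alone (E2f8 KO) or of Rb alone (Rb KO), or were wild type (WT), with 3 arrays each labelled as biological replicates, 12 in all. All 4 groups shared the spleen, the sort and the age. The sources used here do not give the alleles, any Cre driver, the strain, the sex or any agent the mice received. Values are log2 signals, so a difference of 1 is a 2-fold change, and differences carry the standard error of the limma fit. A gene was called changed at an adjusted p under 0.05.

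Type I interferons bind a receptor of IFNAR1 and IFNAR2 chains, and the kinases bound to it activate a complex of STAT proteins and IRF9 that binds the interferon-stimulated response element (ISRE). Interferon gamma acts through its own receptor and STAT dimers, which bind gamma-activated sites (GAS). The induced proteins sense viral RNA, degrade it, block its translation, mark proteins with ISG15 or attack the vacuoles of pathogens, and immune cells of the spleen, such as macrophages, dendritic cells and B cells, express many of these genes. The retinoblastoma protein, the product of Rb1, binds activating E2F factors and holds them back, and E2f8 is a repressor of the same family.

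Some facts of the arrays bear on every comparison. Signals of the knocked-out genes went against some labels: Rb1 averaged 12.12 ± 0.13 in arrays labelled DKO, 11.71 ± 0.03 in those labelled E2f8 KO, 12.42 ± 0.11 in those labelled Rb KO and 12.82 ± 0.17 in those labelled WT (SD, n = 3 each). E2f8 averaged 13.13 ± 0.04 in arrays labelled DKO, 12.81 ± 0.07 in those labelled E2f8 KO, 12.19 ± 0.45 in those labelled Rb KO and 11.95 ± 0.29 in those labelled WT. The sources used here do not say where the probe sets lie relative to the deletions, so these signals do not settle the genotypes, and every direction below rests on the labels. E2f8 KO replicate 3 and DKO replicate 3 stood apart in sex-linked genes: Xist, the RNA of the silenced X chromosome, lay at 5.22 and 3.99 there and between 11.30 and 12.18 in the other arrays. The transferrin receptor gene Tfrc averaged 12.87 ± 0.09 in arrays labelled DKO, 12.96 ± 0.13 in those labelled E2f8 KO, 12.28 ± 0.55 in those labelled Rb KO and 12.55 ± 0.21 in those labelled WT, and 10 measured erythroblast markers averaged 12.90 in DKO, 12.96 in E2f8 KO, 12.56 in Rb KO and 12.74 in WT arrays. Markers of other blood cells were also present. The mean over 15 B cell markers had a range of 6.31 to 7.36 in DKO, 7.80 to 8.18 in E2f8 KO, 9.68 to 11.88 in Rb KO and 10.27 to 11.66 in WT arrays. The mean over 16 macrophage and monocyte markers averaged 7.59 in DKO, 8.49 in E2f8 KO, 8.83 in Rb KO and 9.77 in WT arrays. Signals of the defining markers Cd79a (B cells), Csf1r and Adgre1 (macrophages) averaged 7.46, 7.28 and 6.53 in DKO arrays, against 12.15, 10.91 and 9.87 in WT arrays.

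Promoters were read for the members that RefSeq's table of the GRCm38.p6 build holds, 32 of 42, from 250 bases before to 50 bases after the start of transcription. The ISRE core (GAAA, any 2 bases, then GAAA, on either strand) stood in 19 of the 32, or 59.4%, against 3.99% of the 27025 genes in the table. The GAS motif (TTCNNNGAA, which reads the same on either strand) stood in 13 of the 32, or 40.6%, against 9.55% of genes. The stretches below come from members whose signals carry the comparisons that follow. They run 5′ to 3′ on the strand of the gene up to the last base before the start, with motif matches in capitals. For Gbp3 the first of 2 starts in the table is shown. The first 4 are the 2 called members with the largest difference of DKO from WT among the antiviral effectors and among the GTPases that hold a match. Cxcl10 was added after its values were seen, as the member with the largest increase.
Ifit1, chr19:34640739-34640888, plus strand: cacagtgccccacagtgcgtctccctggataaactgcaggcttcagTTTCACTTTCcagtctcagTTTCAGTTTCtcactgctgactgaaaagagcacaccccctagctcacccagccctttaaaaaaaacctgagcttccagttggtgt
Rsad2, chr12:26456453-26456602, minus strand: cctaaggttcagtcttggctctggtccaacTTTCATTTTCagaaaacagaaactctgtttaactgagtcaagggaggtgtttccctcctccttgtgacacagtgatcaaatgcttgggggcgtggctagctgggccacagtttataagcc
Gbp7, chr3:142530186-142530335, plus strand: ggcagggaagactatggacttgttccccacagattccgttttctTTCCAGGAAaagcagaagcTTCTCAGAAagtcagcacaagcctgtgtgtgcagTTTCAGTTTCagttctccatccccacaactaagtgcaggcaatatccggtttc
Gbp3, chr3:142559894-142560043, plus strand: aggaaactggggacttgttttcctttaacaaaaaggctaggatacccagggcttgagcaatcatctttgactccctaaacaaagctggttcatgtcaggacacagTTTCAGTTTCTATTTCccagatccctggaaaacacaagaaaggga
Cxcl10, chr5:92348890-92349139, minus strand: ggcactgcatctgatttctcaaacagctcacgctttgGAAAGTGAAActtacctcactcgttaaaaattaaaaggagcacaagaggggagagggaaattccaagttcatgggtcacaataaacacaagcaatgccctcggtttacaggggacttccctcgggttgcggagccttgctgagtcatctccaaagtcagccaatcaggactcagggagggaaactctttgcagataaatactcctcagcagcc
Ifit1 held a pair of ISRE cores, beginning at -104 and -85 counted from the start, and Rsad2 held 1, beginning at -120. Gbp7 held 2 GAS matches, at -106 and -87, and an ISRE core at -53. Gbp3 held 2 overlapping ISRE cores, at -45 and -39 from the start shown, and its other start held no match. The ISRE core of Cxcl10 lay farther out, at -213. E2F sites of the forms TTTGGCGC, TTTGCCGC, TTTCGCGC and TTTCCCGC, searched on both strands after the data were seen, stood in 1 of the 32 windows (Ifit2, beginning at -12) and in 2.60% of genes.

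In arrays labelled DKO, 16 of the 33 members tested differed from WT: 13 fell and 3 rose. That is 48.5% called, beside a background of 38.2% of the 12980 genes, with 39.4% lower beside 17.6% of genes and 9.1% higher beside 20.6%. In E2f8 KO against WT, 9 members fell and 3 rose, or 36.4% called beside a background of 26.1% (27.3% lower beside 14.2%, and 9.1% higher beside 11.9%). In DKO against Rb KO, 11 fell and 5 rose, or 48.5% beside a background of 37.1% (33.3% lower beside 17.6%, and 15.2% higher beside 19.5%). In DKO against E2f8 KO, 3 members were called (Rsad2 and Gbp7 lower, Cxcl10 higher), or 9.1% beside a background of 2.37% (6.1% lower beside 0.647%, and 3.0% higher beside 1.73%). In Rb KO against WT, no member was called by limma (background 0.00770%), and 2 lay at an unadjusted p under 0.05. The median difference over the 33 members was -0.11 for DKO against WT, -0.20 for E2f8 KO against WT, 0.04 for Rb KO against WT, -0.20 for DKO against Rb KO and -0.10 for DKO against E2f8 KO, beside medians over all genes between -0.02 and 0.06. The members thus did not move as a block. The arrays of the groups compared did not overlap for 21 of the 33 members in DKO against WT (63.6%, beside 45.9% of all genes), 15 in E2f8 KO against WT (45.5%, beside 45.8%), 3 in Rb KO against WT (9.1%, beside 6.28%), 19 in DKO against Rb KO (57.6%, beside 43.6%) and 11 in DKO against E2f8 KO (33.3%, beside 35.0%). Differences of DKO from WT spanned -2.70 for Trim30a to 1.92 for Cxcl10. In these bulk samples, fewer cells of a type and less RNA per cell cannot be told apart.

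**Figure D1:**
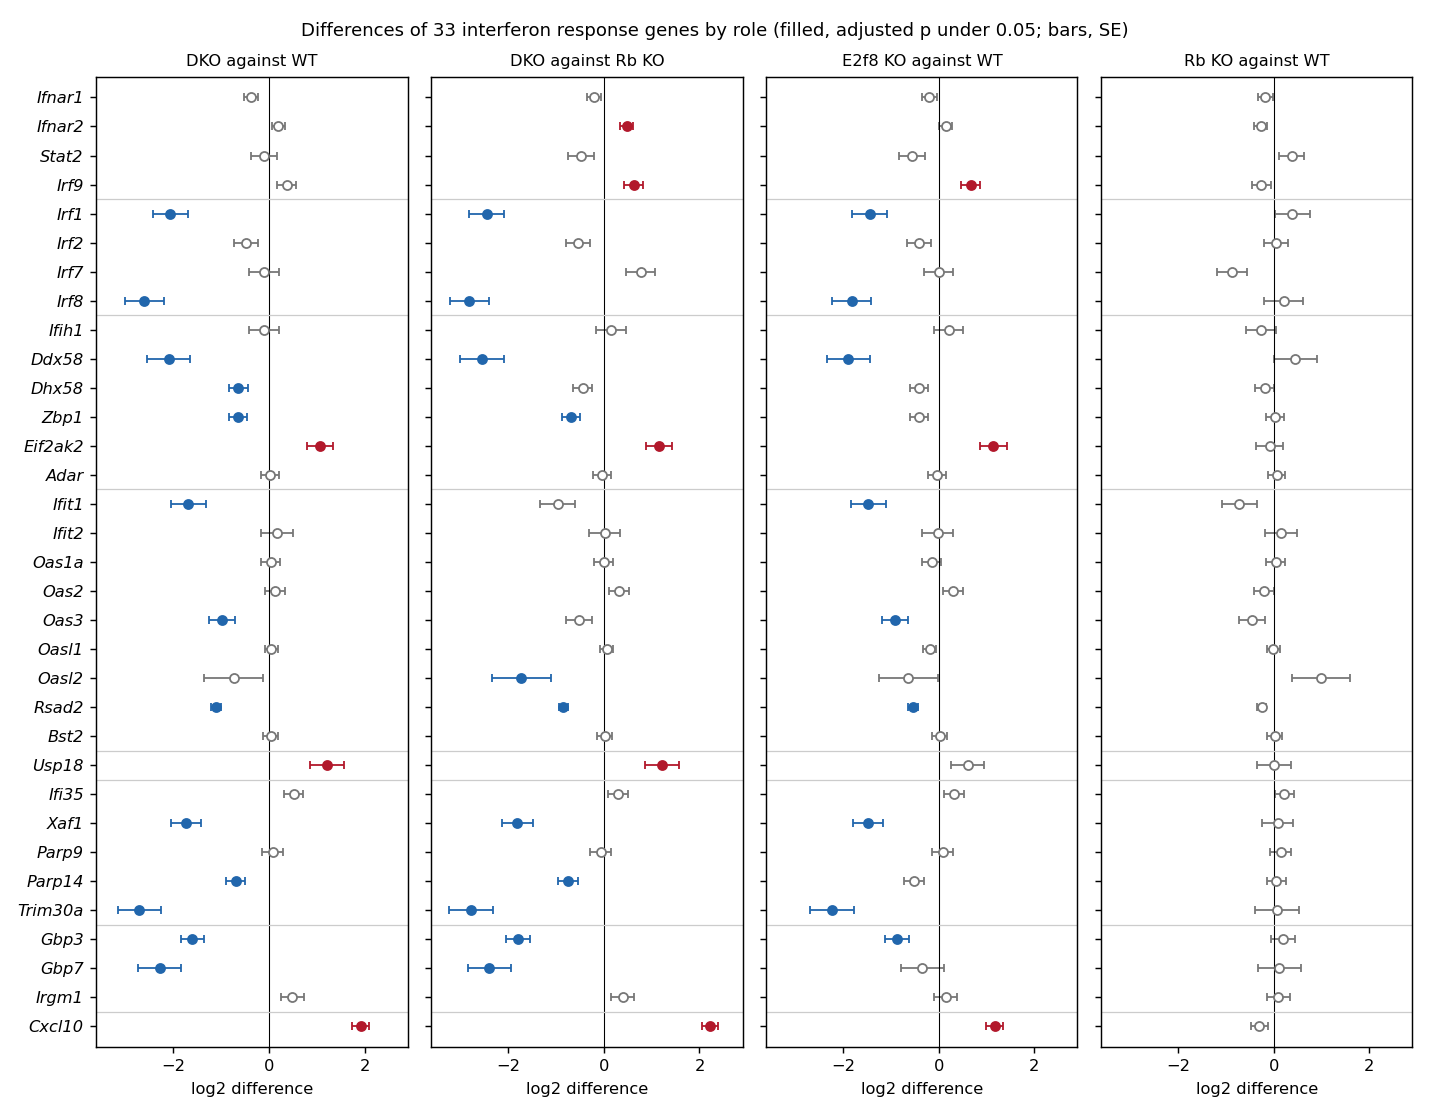
log2 differences of the 33 tested members (rows, ordered by role) for 4 comparisons: DKO against WT, DKO against Rb KO, E2f8 KO against WT and Rb KO against WT. Bars show 1 standard error of the limma fit, and filled points mark members called at an adjusted p under 0.05. In DKO against WT 13 members are called lower and 3 higher, and in Rb KO against WT none is called.

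Among the antiviral effectors, Rsad2, Ifit1 and Oas3 were lower in arrays labelled DKO and E2f8 KO than in WT, while most Oas genes, Ifit2 and Bst2 were not called. Of the 12 listed effectors 9 were tested, and 3 fell in DKO against WT and in E2f8 KO against WT, with none called higher. Over all genes, 38.2% were called in DKO against WT (17.6% lower, 20.6% higher) and 26.1% in E2f8 KO against WT (14.2% lower, 11.9% higher). Rsad2 encodes viperin, a radical SAM enzyme that makes a nucleotide analogue which stops viral RNA synthesis. Its log2 signals were 13.09, 12.70 and 12.66 in arrays labelled DKO, 13.37, 13.43 and 13.35 in those labelled E2f8 KO, 13.71, 13.60 and 13.68 in those labelled Rb KO, and 13.84, 13.94 and 13.97 in those labelled WT. The 4 groups did not overlap, and DKO was the lowest, followed by E2f8 KO, Rb KO and WT. It fell by 1.10 ± 0.10 (SE, adjusted p = 1.37e-05) in DKO against WT and fell by 0.53 ± 0.10 (SE, adjusted p = 0.00366) in E2f8 KO against WT. Against Rb KO it fell by 0.84 ± 0.10 (SE, adjusted p = 0.000119) in DKO, and against E2f8 KO it fell by 0.56 ± 0.10 (SE, adjusted p = 0.0125) in DKO. The last call was lost without E2f8 KO replicate 1, E2f8 KO replicate 2, DKO replicate 2 or DKO replicate 3 (differences between -0.70 and -0.49 over the 12 fits that each leave out 1 array, adjusted p up to 0.0767), and also without both arrays of low Xist (-0.51, adjusted p = 0.158). In Rb KO against WT the difference was -0.25 ± 0.10 (SE, adjusted p = 0.916).

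Ifit1 encodes a protein that binds viral RNA lacking a host cap modification and blocks its translation. The log2 signals read 6.67, 6.43 and 6.52 in arrays labelled DKO, 6.81, 6.92 and 6.53 in those labelled E2f8 KO, 8.33, 7.52 and 6.66 in those labelled Rb KO, and 8.49, 8.69 and 7.49 in those labelled WT. All DKO and E2f8 KO arrays lay below all WT arrays, and the Rb KO arrays spread from the DKO range up to the WT range. It fell by 1.68 ± 0.37 (SE, adjusted p = 0.00307) in DKO against WT and fell by 1.47 ± 0.37 (SE, adjusted p = 0.0122) in E2f8 KO against WT, and DKO against Rb KO gave -0.96 ± 0.37 (SE, adjusted p = 0.0555), which is not past the threshold. The call for E2f8 KO was lost without WT replicate 2 (differences between -1.83 and -1.23 over the 12 fits that each leave out 1 array, adjusted p up to 0.0617) and without both arrays of low Xist (-1.35, adjusted p = 0.0553).

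Oas3 encodes an oligoadenylate synthetase, which responds to double-stranded RNA by making the messenger that activates RNase L. Array by array, the log2 signals were 9.86, 9.40 and 9.87 in arrays labelled DKO, 9.499, 10.08 and 9.74 in those labelled E2f8 KO, 10.95, 9.82 and 9.92 in those labelled Rb KO, and 10.56, 10.88 and 10.62 in those labelled WT. The DKO and E2f8 KO arrays lay below the WT arrays, and in Rb KO replicate 1 lay above all WT arrays while the other 2 lay below them. It fell by 0.98 ± 0.27 (SE, adjusted p = 0.013) in DKO against WT and fell by 0.91 ± 0.27 (SE, adjusted p = 0.0272) in E2f8 KO against WT. The DKO call was lost without WT replicate 2 or DKO replicate 2 (differences between -1.06 and -0.82 over the 12 fits that each leave out 1 array, adjusted p up to 0.0601). The E2f8 KO call was lost without WT replicate 2, E2f8 KO replicate 1 or E2f8 KO replicate 3 (differences between -1.07 and -0.78 over the 12 fits that each leave out 1 array, adjusted p up to 0.11) and without both arrays of low Xist (-0.90, adjusted p = 0.0853). The related genes Oas1a, Oas2 and Oasl1 were not called in any comparison, with differences of DKO from WT of 0.04 ± 0.19 (SE, adjusted p = 0.902) for Oas1a, 0.13 ± 0.21 (SE, adjusted p = 0.688) for Oas2 and 0.05 ± 0.14 (SE, adjusted p = 0.814) for Oasl1.

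Oasl2, which encodes an oligoadenylate synthetase-like protein, was set apart by 1 array. Its log2 signals were 6.47, 6.06 and 6.49 in arrays labelled DKO, 6.41, 6.73 and 6.17 in those labelled E2f8 KO, 10.11, 7.44 and 6.63 in those labelled Rb KO, and 7.08, 7.32 and 6.82 in those labelled WT. Rb KO replicate 1 was the highest of the 12 arrays, and the other Rb KO arrays lay near the WT range. All DKO and E2f8 KO arrays lay below all WT arrays. In the main fit DKO against WT (-0.73, adjusted p = 0.394) and E2f8 KO against WT (-0.63, adjusted p = 0.474) were not called. Both were called lower without Rb KO replicate 1 (adjusted p = 0.0137 for DKO and 0.0378 for E2f8 KO). With only the groups compared they were also called lower (adjusted p = 0.0112 and 0.0148). Oasl2 fell by 1.72 ± 0.61 (SE, adjusted p = 0.0423) in DKO against Rb KO, but the call held in only 3 of the 12 fits that leave out 1 array, those without an Rb KO array, and was lost without any 1 of the WT, E2f8 KO or DKO arrays. Those fits gave differences between -2.43 and -0.70, the smallest without Rb KO replicate 1. It was also lost after quantile normalization (-1.61, adjusted p = 0.0661), with centred arrays (-1.68, adjusted p = 0.0533), with only the groups compared (-1.72, adjusted p = 0.135) and without both arrays of low Xist (-1.80, adjusted p = 0.0892). Ifit2 and Bst2 (tetherin, which holds budding virus at the cell surface) gave differences of DKO from WT of 0.17 ± 0.33 (SE, adjusted p = 0.749) and 0.04 ± 0.16 (SE, adjusted p = 0.881). Ifit2 spread widely within groups, with DKO signals of 5.92, 6.97 and 6.73 against WT signals of 6.84, 6.04 and 6.23.

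**Figure D2:**
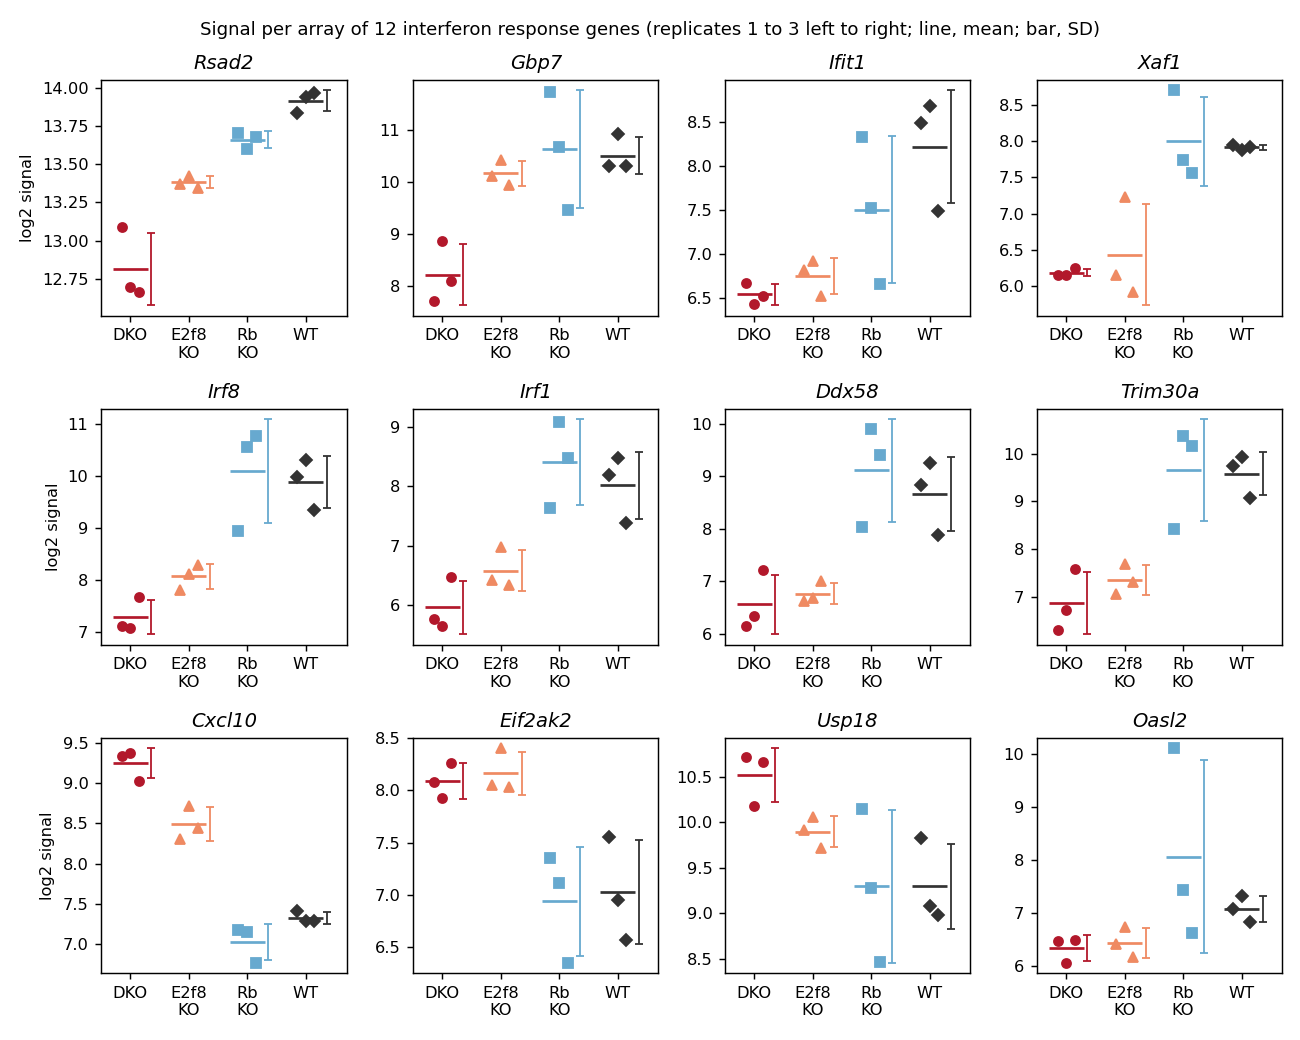
log2 signal (vertical axis) of 12 members in each of the 12 arrays, with the groups in the order DKO, E2f8 KO, Rb KO and WT, points for single arrays, short lines for the mean of 3 and bars for 1 SD on either side. Rsad2 separates the 4 groups without overlap, Cxcl10 is highest in DKO, and Rb KO arrays spread widely in Oasl2 and Gbp7.

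Among the interferon-inducible GTPases, Gbp7 fell in DKO and was not called in E2f8 KO, and Gbp3 fell in both. Gbp7 and Gbp3 encode guanylate-binding proteins, which gather on the vacuoles of pathogens. Gbp7 had log2 signals of 7.72, 8.86 and 8.10 in arrays labelled DKO, 10.12, 10.42 and 9.95 in those labelled E2f8 KO, 11.73, 10.67 and 9.47 in those labelled Rb KO, and 10.30, 10.91 and 10.30 in those labelled WT. The DKO arrays were the lowest 3 of the 12, and the E2f8 KO arrays overlapped those of WT. Gbp7 fell by 2.28 ± 0.45 (SE, adjusted p = 0.00162) in DKO against WT and fell by 2.40 ± 0.45 (SE, adjusted p = 0.00145) in DKO against Rb KO, while E2f8 KO against WT gave -0.34 ± 0.45 (SE, adjusted p = 0.606). In DKO against E2f8 KO it fell by 1.94 ± 0.45 (SE, adjusted p = 0.0433), and that call held in 3 of the 12 fits that leave out 1 array (without WT replicate 2, Rb KO replicate 1 or Rb KO replicate 3), with differences between -2.25 and -1.68 and adjusted p up to 0.169. It was also lost with the arrays centred on their medians (-1.87, adjusted p = 0.0605) and without both arrays of low Xist (-1.98, adjusted p = 0.248). The test of whether the E2f8 label acted differently in the 2 Rb backgrounds, the interaction, gave -2.06 ± 0.64 (SE, adjusted p = 0.643) for Gbp7, so a difference between backgrounds was not shown.

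Gbp3 had log2 signals of 5.73, 5.83 and 5.84 in arrays labelled DKO, 6.46, 6.95 and 6.17 in those labelled E2f8 KO, 7.17, 7.88 and 7.72 in those labelled Rb KO, and 7.58, 7.69 and 6.92 in those labelled WT. The DKO arrays lay below all others, and the E2f8 KO arrays overlapped WT in 1 array. It fell by 1.60 ± 0.25 (SE, adjusted p = 0.000338) in DKO against WT, fell by 1.79 ± 0.25 (SE, adjusted p = 0.000244) in DKO against Rb KO and fell by 0.87 ± 0.25 (SE, adjusted p = 0.021) in E2f8 KO against WT. The last call was lost without WT replicate 1, WT replicate 2, E2f8 KO replicate 1 or E2f8 KO replicate 3 (differences between -1.11 and -0.69 over the 12 fits that each leave out 1 array, adjusted p up to 0.0967) and without both arrays of low Xist (-0.69, adjusted p = 0.107). Irgm1, an immunity-related GTPase that regulates its family members and autophagy, was not called, with a difference of DKO from WT of 0.49 ± 0.24 (SE, adjusted p = 0.125). The probe set shared by Gbp2 and Gbp2b, which was not tested because it names 2 genes, had log2 signals of 4.86, 5.74 and 5.16 in arrays labelled DKO, 6.14, 7.45 and 6.53 in those labelled E2f8 KO, 7.75, 8.68 and 7.08 in those labelled Rb KO, and 7.87, 8.12 and 7.17 in those labelled WT. There too the DKO arrays lay below all others. The probe set shared by Irgm2 and Igtp averaged 11.19 in DKO, 10.77 in E2f8 KO, 10.84 in Rb KO and 10.92 in WT arrays, with overlapping groups.

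Of the 4 interferon regulatory factors, Irf1 and Irf8 fell in DKO and E2f8 KO, and Irf2 and Irf7 were not called. Irf8 is a transcription factor needed for B cell, monocyte and dendritic cell development. The log2 signals read 7.12, 7.08 and 7.66 in arrays labelled DKO, 7.80, 8.12 and 8.28 in those labelled E2f8 KO, 8.95, 10.57 and 10.77 in those labelled Rb KO, and 9.99, 10.32 and 9.35 in those labelled WT. The DKO arrays were the lowest, the E2f8 KO arrays next, and the Rb KO and WT arrays overlapped above them. Irf8 fell by 2.60 ± 0.41 (SE, adjusted p = 0.000371) in DKO against WT, fell by 1.82 ± 0.41 (SE, adjusted p = 0.00737) in E2f8 KO against WT and fell by 2.81 ± 0.41 (SE, adjusted p = 0.000324) in DKO against Rb KO. Irf1, an activator induced chiefly by interferon gamma, had log2 signals of 5.76, 5.64 and 6.47 in arrays labelled DKO, 6.42, 6.97 and 6.34 in those labelled E2f8 KO, 7.64, 9.09 and 8.49 in those labelled Rb KO, and 8.19, 8.47 and 7.38 in those labelled WT. Its DKO and E2f8 KO arrays lay below all Rb KO and WT arrays. Irf1 fell by 2.06 ± 0.37 (SE, adjusted p = 0.000869) in DKO against WT, fell by 1.44 ± 0.37 (SE, adjusted p = 0.0134) in E2f8 KO against WT and fell by 2.45 ± 0.37 (SE, adjusted p = 0.000398) in DKO against Rb KO. The call for E2f8 KO was lost without WT replicate 2, E2f8 KO replicate 1 or E2f8 KO replicate 3 (differences between -1.76 and -1.21 over the 12 fits that each leave out 1 array, adjusted p up to 0.0662) and with the mean of both Irf1 probe sets (-0.66, adjusted p = 0.0579). The second Irf1 probe set averaged 6.36 in DKO, 6.58 in E2f8 KO, 6.63 in Rb KO and 6.45 in WT arrays, and so did not show the difference of the first.

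Irf7, the factor that amplifies type I interferon production, gave -0.10 ± 0.31 (SE, adjusted p = 0.837) for DKO against WT and -0.87 ± 0.31 (SE, adjusted p = 0.681) for Rb KO against WT, neither past the threshold. Its Rb KO signals were 9.23, 8.77 and 8.18, against 9.46, 10.32 and 9.01 in WT arrays. With limma's array weights the Rb KO difference was -1.31 (adjusted p = 0.0231), the 1 call for Rb KO in the alternatives tried. Irf2, a regulator that binds the same sites as Irf1, gave -0.48 ± 0.25 (SE, adjusted p = 0.154) for DKO against WT.

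The sensors of nucleic acid moved in opposite directions. Ddx58, Dhx58 and Zbp1 were lower in DKO than in WT, Eif2ak2 was higher, and Ifih1 and Adar were not called. Ddx58 encodes RIG-I, which recognises viral RNA ends in the cytosol. Array by array, the log2 signals were 6.16, 6.33 and 7.21 in arrays labelled DKO, 6.62, 6.68 and 7.005 in those labelled E2f8 KO, 8.03, 9.91 and 9.40 in those labelled Rb KO, and 8.84, 9.25 and 7.88 in those labelled WT. The DKO and E2f8 KO arrays lay below all Rb KO and WT arrays. Ddx58 fell by 2.09 ± 0.45 (SE, adjusted p = 0.00282) in DKO against WT, fell by 1.89 ± 0.45 (SE, adjusted p = 0.00984) in E2f8 KO against WT and fell by 2.54 ± 0.45 (SE, adjusted p = 0.00101) in DKO against Rb KO. The E2f8 KO call was lost without WT replicate 2 (differences between -2.28 and -1.59 over the 12 fits that each leave out 1 array, adjusted p up to 0.0524). Ifih1, which encodes the related sensor MDA5, had signals of 8.01, 8.06 and 8.23 in DKO against 8.63, 8.11 and 7.88 in WT arrays, a difference of -0.11 ± 0.31 (SE, adjusted p = 0.836).

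Eif2ak2 encodes PKR, a kinase that binds double-stranded RNA and stops translation by phosphorylating eIF2 alpha. Its log2 signals were 8.08, 7.93 and 8.27 in arrays labelled DKO, 8.05, 8.41 and 8.03 in those labelled E2f8 KO, 7.35, 7.11 and 6.35 in those labelled Rb KO, and 7.55, 6.95 and 6.56 in those labelled WT. All DKO and E2f8 KO arrays lay above all Rb KO and WT arrays. Eif2ak2 rose by 1.07 ± 0.28 (SE, adjusted p = 0.00847) in DKO against WT, rose by 1.14 ± 0.28 (SE, adjusted p = 0.0108) in E2f8 KO against WT and rose by 1.15 ± 0.28 (SE, adjusted p = 0.00578) in DKO against Rb KO. Zbp1, a sensor of Z-form nucleic acid, fell by 0.65 ± 0.19 (SE, adjusted p = 0.016) in DKO against WT and fell by 0.68 ± 0.19 (SE, adjusted p = 0.0132) in DKO against Rb KO. Its DKO signals were 6.29, 5.95 and 5.98, against 6.52, 7.09 and 6.63 in Rb KO and 6.38, 7.06 and 6.71 in WT arrays. The first call was lost without WT replicate 2, DKO replicate 2 or DKO replicate 3 (differences between -0.81 and -0.48 over the 12 fits that each leave out 1 array, adjusted p up to 0.0848). The second was lost without Rb KO replicate 2 or DKO replicate 2 (differences between -0.79 and -0.50 over the 12 fits that each leave out 1 array, adjusted p up to 0.0687). Both calls were lost without both arrays of low Xist (against WT -0.60, adjusted p = 0.0733, and against Rb KO -0.63, adjusted p = 0.0637). Dhx58, which encodes the regulator LGP2, fell by 0.63 ± 0.19 (SE, adjusted p = 0.0193) in DKO against WT, a call lost without WT replicate 2 or DKO replicate 3 (differences between -0.82 and -0.46 over the 12 fits that each leave out 1 array, adjusted p up to 0.101) and without both arrays of low Xist (-0.59, adjusted p = 0.0785). Adar, an enzyme that edits adenosines in double-stranded RNA, gave 0.03 ± 0.19 (SE, adjusted p = 0.927).

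Few differences of the receptor chains and the transducers passed the test. Irf9, the DNA-binding part of the complex with STAT proteins, was the 1 member of the 4 called in E2f8 KO against WT, and none was called in DKO against WT. Irf9 had log2 signals of 10.59, 10.11 and 10.61 in arrays labelled DKO, 10.73, 10.96 and 10.51 in those labelled E2f8 KO, 9.93, 9.95 and 9.55 in those labelled Rb KO, and 10.30, 10.07 and 9.82 in those labelled WT. Its E2f8 KO arrays lay above all Rb KO and WT arrays, and the DKO arrays overlapped WT. Irf9 rose by 0.67 ± 0.20 (SE, adjusted p = 0.0259) in E2f8 KO against WT and rose by 0.63 ± 0.20 (SE, adjusted p = 0.0242) in DKO against Rb KO, while DKO against WT gave 0.37 ± 0.20 (SE, adjusted p = 0.163). The first call was lost without WT replicate 2, WT replicate 3, E2f8 KO replicate 1 or E2f8 KO replicate 2 (differences between 0.55 and 0.79 over the 12 fits that each leave out 1 array, adjusted p up to 0.112). The second was lost without Rb KO replicate 3, DKO replicate 1 or DKO replicate 3 (differences between 0.50 and 0.79 over the 12 fits that each leave out 1 array, adjusted p up to 0.0958). The second was also lost with only the groups compared (0.63, adjusted p = 0.0652), after quantile normalization (0.47, adjusted p = 0.0551) and without both arrays of low Xist (0.54, adjusted p = 0.111).

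Ifnar2 had signals of 11.50, 11.53 and 11.33 in DKO against 11.11, 11.04 and 10.78 in Rb KO arrays, and it rose by 0.48 ± 0.13 (SE, adjusted p = 0.0135) in that comparison. This call was lost without Rb KO replicate 3 or DKO replicate 2 (differences between 0.38 and 0.54 over the 12 fits that each leave out 1 array, adjusted p up to 0.0545) and with only the groups compared (0.48, adjusted p = 0.0582). Ifnar1 gave -0.37 ± 0.15 (SE, adjusted p = 0.0673) for DKO against WT. It was called lower there after quantile normalization (-0.57, adjusted p = 0.0027) and with no variance trend (adjusted p = 0.0347). The same held with 60% of probe sets removed (adjusted p = 0.0493) and without Rb KO replicate 3 (adjusted p = 0.049). Stat2 gave -0.10 ± 0.27 (SE, adjusted p = 0.821) for DKO against WT and -0.56 ± 0.27 (SE, adjusted p = 0.14) for E2f8 KO against WT, with signals of 8.02, 8.26 and 8.36 in DKO, 7.75, 7.74 and 7.75 in E2f8 KO and 8.52, 8.65 and 7.76 in WT arrays.

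Cxcl10 and Usp18 were higher in DKO. Cxcl10 encodes the chemokine IP-10, which draws T cells through CXCR3 and is induced by interferon and by NF-kappaB. The log2 signals read 9.34, 9.37 and 9.03 in arrays labelled DKO, 8.31, 8.72 and 8.45 in those labelled E2f8 KO, 7.17, 7.15 and 6.77 in those labelled Rb KO, and 7.41, 7.29 and 7.28 in those labelled WT. All DKO arrays lay above all E2f8 KO arrays, and these above all Rb KO and WT arrays. Cxcl10 rose by 1.92 ± 0.18 (SE, adjusted p = 1.23e-05) in DKO against WT, rose by 1.17 ± 0.18 (SE, adjusted p = 0.00116) in E2f8 KO against WT and rose by 2.22 ± 0.18 (SE, adjusted p = 8.91e-06) in DKO against Rb KO. In DKO against E2f8 KO it rose by 0.76 ± 0.18 (SE, adjusted p = 0.0435). That call held in 4 of the 12 fits that leave out 1 array (without WT replicate 1, WT replicate 3, Rb KO replicate 1 or Rb KO replicate 3), which together gave differences between 0.66 and 0.87 with adjusted p up to 0.211. It was also lost with no filter on dim probe sets (0.76, adjusted p = 0.0576), after quantile normalization (0.59, adjusted p = 0.105) and without both arrays of low Xist (0.84, adjusted p = 0.215). In Rb KO against WT the difference was -0.30 ± 0.18 (SE, adjusted p = 0.9998).

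Usp18 encodes the protease that removes ISG15 from proteins and also damps the type I interferon receptor. Array by array, the log2 signals were 10.71, 10.18 and 10.66 in arrays labelled DKO, 9.92, 10.06 and 9.72 in those labelled E2f8 KO, 10.15, 9.28 and 8.47 in those labelled Rb KO, and 9.83, 9.08 and 8.98 in those labelled WT. The DKO arrays lay above all Rb KO and WT arrays, and the E2f8 KO arrays overlapped both. Usp18 rose by 1.22 ± 0.35 (SE, adjusted p = 0.015) in DKO against WT and rose by 1.22 ± 0.35 (SE, adjusted p = 0.0156) in DKO against Rb KO, and E2f8 KO against WT gave 0.60 ± 0.35 (SE, adjusted p = 0.229). The first call was lost without WT replicate 2, WT replicate 3 or DKO replicate 1 (differences between 1.06 and 1.49 over the 12 fits that each leave out 1 array, adjusted p up to 0.0619). The second was lost without Rb KO replicate 3 or DKO replicate 1 (differences between 0.80 and 1.64 over the 12 fits that each leave out 1 array, adjusted p up to 0.0677), the difference without Rb KO replicate 3 being 0.80. Both calls were lost without both arrays of low Xist (against WT 1.15, adjusted p = 0.062, and against Rb KO 1.15, adjusted p = 0.0647), and the second also with only the groups compared (1.22, adjusted p = 0.0559). Isg15 itself shared its probe set with Gm9706, and those signals overlapped: 7.50, 6.55 and 7.61 in arrays labelled DKO, 7.21, 7.59 and 7.34 in those labelled E2f8 KO, 7.90, 6.81 and 6.38 in those labelled Rb KO, and 7.35, 7.58 and 6.84 in those labelled WT.

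Of the remaining antiviral and regulatory genes, Trim30a, Xaf1 and Parp14 fell in DKO, and Ifi35 and Parp9 were not called. Trim30a, a TRIM protein that restrains NF-kappaB signalling in mouse cells, had log2 signals of 6.31, 6.74 and 7.58 in arrays labelled DKO, 7.07, 7.68 and 7.32 in those labelled E2f8 KO, 8.42, 10.37 and 10.15 in those labelled Rb KO, and 9.74, 9.92 and 9.08 in those labelled WT. The DKO and E2f8 KO arrays lay below all Rb KO and WT arrays. Trim30a fell by 2.70 ± 0.46 (SE, adjusted p = 0.000625) in DKO against WT, fell by 2.22 ± 0.46 (SE, adjusted p = 0.00509) in E2f8 KO against WT and fell by 2.77 ± 0.46 (SE, adjusted p = 0.000685) in DKO against Rb KO. Xaf1, an antagonist of the apoptosis inhibitor XIAP, had log2 signals of 6.16, 6.16 and 6.25 in arrays labelled DKO, 6.16, 7.23 and 5.93 in those labelled E2f8 KO, 8.70, 7.73 and 7.55 in those labelled Rb KO, and 7.95, 7.87 and 7.93 in those labelled WT. The 3 WT arrays lay close together, with all DKO and E2f8 KO arrays below them. Xaf1 fell by 1.73 ± 0.32 (SE, adjusted p = 0.00112) in DKO against WT, fell by 1.48 ± 0.32 (SE, adjusted p = 0.0065) in E2f8 KO against WT and fell by 1.81 ± 0.32 (SE, adjusted p = 0.00102) in DKO against Rb KO. Parp14, a mono-ADP-ribosyltransferase, fell by 0.69 ± 0.21 (SE, adjusted p = 0.0174) in DKO against WT and fell by 0.75 ± 0.21 (SE, adjusted p = 0.0119) in DKO against Rb KO. The call against WT was lost without WT replicate 1, WT replicate 2 or DKO replicate 1 (differences between -0.91 and -0.59 over the 12 fits that each leave out 1 array, adjusted p up to 0.0794). Parp9 gave 0.08 ± 0.22 (SE, adjusted p = 0.821) and Ifi35 0.52 ± 0.20 (SE, adjusted p = 0.0585) for DKO against WT.

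The 5 members below the filter were Ifit3, Mx1, Mx2, Iigp1 and Rtp4. In a fit with no filter, Ifit3 fell by 0.74 ± 0.23 (SE, adjusted p = 0.0273) in DKO against WT and by 0.82 ± 0.23 (SE, adjusted p = 0.0174) in DKO against Rb KO. Its log2 signals were 5.24, 5.13 and 4.95 in arrays labelled DKO, 5.46, 5.67 and 5.41 in those labelled E2f8 KO, 5.67, 6.35 and 5.74 in those labelled Rb KO, and 5.98, 6.299 and 5.28 in those labelled WT. All DKO arrays lay below all WT arrays. Mx1 and Mx2 encode dynamin-like GTPases that trap viral particles. Mx1 averaged 4.26 ± 0.18 in arrays labelled DKO, 4.14 ± 0.12 in those labelled E2f8 KO, 4.16 ± 0.27 in those labelled Rb KO and 4.13 ± 0.19 in those labelled WT (SD, n = 3 each). Mx2 averaged 4.49 ± 0.15 in arrays labelled DKO, 4.60 ± 0.28 in those labelled E2f8 KO, 4.79 ± 0.10 in those labelled Rb KO and 4.59 ± 0.06 in those labelled WT. None of the 6 comparisons was called for either. Iigp1 and Rtp4 were not called either. Isg15, Gbp2 and Igtp had shared probe sets only, and Ifi44 was not analysed here.

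The difference that went with the E2f8 label was set against itself in both Rb backgrounds, in comparisons with no array in common: E2f8 KO against WT, and DKO against Rb KO. All 3 members that rose in the first (Cxcl10, Eif2ak2 and Irf9) also rose in the second, where 5 rose, and of all genes called higher in the first 88.6% were called higher in the second. Of the 9 that fell in the first, 7 fell in the second, 77.8% of the 9 and 63.6% of the 11 that fell there, beside 83.6% and 67.4% over all genes called lower: Ddx58, Gbp3, Irf1, Irf8, Rsad2, Trim30a and Xaf1. No member was called in opposite directions. The sign was the same for 28 of the 33 members, and for 77.0% of all genes. Across the members, which are not independent of each other, Pearson's r between the differences was 0.91, the value over all genes being 0.91 too. The members that departed most from equal differences were Gbp7, at -2.40 ± 0.45 (SE, adjusted p = 0.00145) for DKO against Rb KO and -0.34 ± 0.45 (SE, adjusted p = 0.606) for E2f8 KO against WT, Oasl2 and Cxcl10. The same differences were -1.72 ± 0.61 (SE, adjusted p = 0.0423) and -0.63 ± 0.61 (SE, adjusted p = 0.474) for Oasl2, and 2.22 and 1.17 for Cxcl10. Without Rb KO replicate 1, DKO against Rb KO gave -0.70 for Oasl2, close to the -0.63 of E2f8 KO against WT. The interaction was called for no member (background 0.0770% of genes, 0.0539% higher and 0.0231% lower), and 3 members had an unadjusted p under 0.05.

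**Figure D3:**
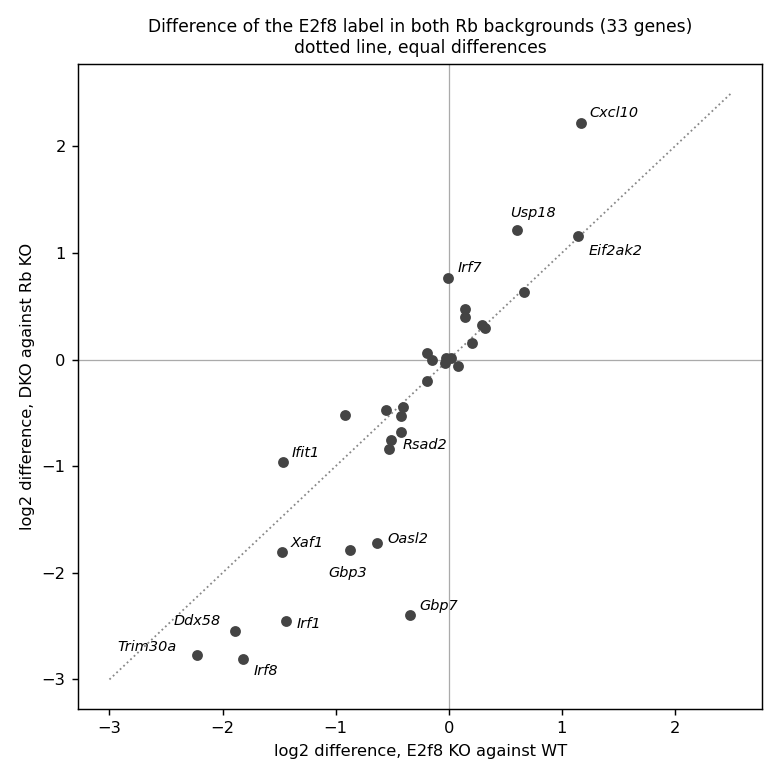
log2 difference of E2f8 KO against WT (horizontal axis) and of DKO against Rb KO (vertical axis), 1 point for each of the 33 tested members, with a dotted line where both are equal. Cxcl10 and Eif2ak2 lie high in both, the members called lower in both lie at the lower left, and Gbp7 lies far below the line at -0.34 and -2.40.

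Rb KO against WT gave no call among the members, beside 0.00770% of all genes. The standard error pools the spread of all 4 groups. Whether the spread within Rb KO bears on the lack of calls was not tested. The median SD over the members was 0.370 in Rb KO, close to 0.366 for WT arrays. It was 0.207 for E2f8 KO and 0.179 for DKO arrays. Over all genes the median SD was 0.22, 0.25, 0.12 and 0.18 in that order. Large ranges were more frequent within Rb KO than within the other groups. The range over the 3 Rb KO arrays passed 1 on the log2 scale for 14 of the 33 members and for 15.01% of all genes. It passed 1 for 4 members and 4.37% of all genes in DKO, for 1 member and 0.49% in E2f8 KO, and for 4 members and 4.85% in WT. Rb KO replicate 1 was the highest of its group in 16 members and the lowest in 11 (48.5% and 33.3%, close to 44.3% and 38.5% of all genes). Against the mean of replicates 2 and 3 it was higher by 3.07 for Oasl2, 1.66 for Gbp7, 1.29 for Ifih1, 1.27 for Usp18, 1.24 for Ifit1 and 1.08 for Oas3. In the same array the difference from that mean was -1.84 for Trim30a, -1.72 for Irf8, -1.63 for Ddx58 and -1.15 for Irf1. The B cell marker mean was 9.68 in that array, and 11.88 and 11.82 in the other 2. The erythroblast marker mean went the other way, at 12.91 in that array, and 12.56 and 12.22 in the other 2. What set that array apart was not tested.

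Levels of B cell and T and NK cell markers moved with the groups in which members fell. Macrophage and monocyte markers were lower in those groups too, but also in Rb KO, where no member was called. In Rb KO against WT their median difference was -0.99, beside 0.04 over all genes, with none of the 16 called. Of 15 B cell markers, 15 were called lower in DKO against WT and 14 in E2f8 KO against WT, and of 16 macrophage and monocyte markers 15 and 14 were. Over all genes, 17.6% and 14.2% were called lower in these comparisons. All 7 T and NK cell markers tested were called lower in both comparisons, and their mean was 6.12 ± 0.07 in DKO, 6.52 ± 0.11 in E2f8 KO, 7.95 ± 0.58 in Rb KO and 8.18 ± 0.24 in WT arrays. The 8 dendritic cell markers averaged 6.05 ± 0.14 in DKO, 6.36 ± 0.05 in E2f8 KO, 7.38 ± 0.41 in Rb KO and 7.49 ± 0.21 in WT arrays (SD, n = 3 each), and Siglech, which marks plasmacytoid dendritic cells, averaged 5.40, 5.74, 6.40 and 6.49 in that order. Granulocyte markers went the other way, at 8.38 ± 1.71 in DKO, 8.44 ± 0.24 in E2f8 KO, 6.88 ± 0.04 in Rb KO and 6.38 ± 0.09 in WT arrays. In Rb KO the replicate lowest in the B cell marker mean, replicate 1, was also the lowest in Irf8, Trim30a, Ddx58 and Irf1. Irf8, for example, lay at 8.95, 10.57 and 10.77 where that mean lay at 9.68, 11.88 and 11.82. The Rb KO signals of Rsad2 were close to each other, at 13.71, 13.60 and 13.68. The 12 arrays fall into groups, so no correlation over them was tested.

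**Figure D4:**
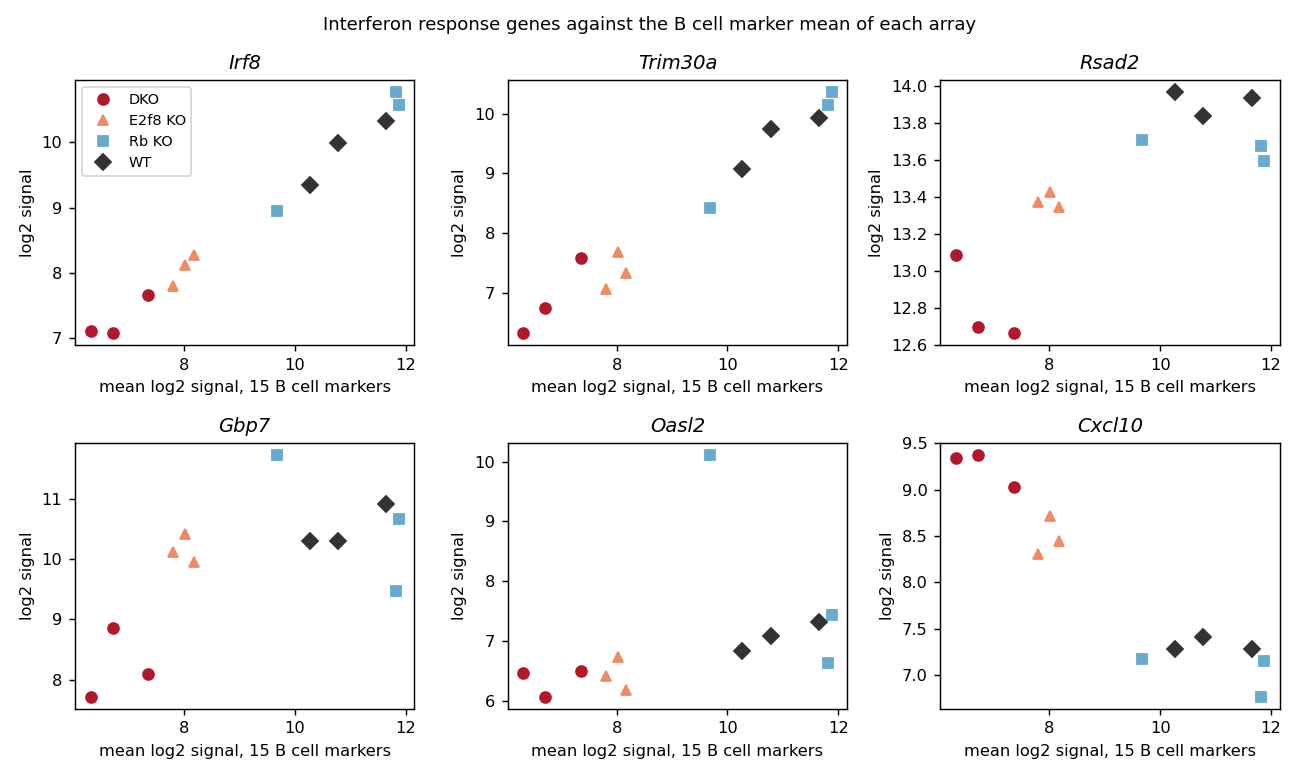
Mean log2 signal of 15 B cell markers (horizontal axis) against the log2 signal of 6 members (vertical axes), 1 point for each of the 12 arrays and colours for the labelled groups. Irf8 and Trim30a climb with the marker mean within Rb KO as well as between groups, while Rsad2 keeps to a narrow range within Rb KO. Oasl2 and Gbp7 are highest within Rb KO in the array with the lowest marker mean.

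With the B cell marker mean of each array as a covariate in the limma fit, calls divided into those that stayed and those that did not. The slope on the covariate comes from differences within groups, which were widest in Rb KO, and is carried over the gap between groups, so the sizes are uncertain. Within groups, the members that stayed lower in DKO against WT correlated negatively with the marker mean (-0.41 for Rsad2, -0.54 for Oas3, -0.54 for Xaf1 and -0.44 for Gbp7). All of them were highest within Rb KO in replicate 1, where that mean was lowest. Their differences grew with the covariate, and which members depend on B cells was not tested. In DKO against WT, 5 of the calls stayed: Rsad2 at -1.37 (adjusted p = 0.00357), Oas3 at -2.06 (adjusted p = 0.0396), Xaf1 at -3.05 (adjusted p = 0.0123), Gbp7 at -3.84 (adjusted p = 0.0247) and Cxcl10 at 1.54 (adjusted p = 0.0342). Signs turned for Irf8, to 0.46 (adjusted p = 0.519), Trim30a, to 0.72 (adjusted p = 0.377), Ddx58, to 1.31 (adjusted p = 0.0839), Irf1, to 0.36 (adjusted p = 0.706), Parp14, to 0.03 (adjusted p = 0.972), and Usp18, to -0.39 (adjusted p = 0.766). Stat2, which was not called without the covariate, gave 1.61 (adjusted p = 0.0271), and Oasl2 was called lower with it. Gbp3, Zbp1, Dhx58 and Ifit1 lost their calls, at -0.37 (adjusted p = 0.668) for Gbp3, -0.06 (adjusted p = 0.945) for Zbp1, -0.01 (adjusted p = 0.99) for Dhx58 and -2.63 (adjusted p = 0.0598) for Ifit1. Eif2ak2 kept its sign without a call, at 0.57 (adjusted p = 0.617). In E2f8 KO against WT, Rsad2, at -0.73 (adjusted p = 0.0453), and Xaf1, at -2.41 (adjusted p = 0.022), stayed called lower, and the signs of Irf1, Irf8, Ddx58 and Trim30a turned. The part of macrophages and other cells in these differences was not tested.

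Promoter motifs were set beside the calls of DKO against WT for the 27 tested members whose promoter was read. Of 15 with an ISRE core, 7 fell, 2 rose and 6 were not called. Of 12 without one, 3 fell, none rose and 9 were not called. For the GAS motif, 3 of 12 with a match fell and 1 rose, and 7 of 15 without one fell and 1 rose. Over all genes tested, 17.6% fell and 20.6% rose in that comparison. Rsad2, Ifit1, Oas3, Gbp3 and Gbp7, which fell, and Cxcl10 and Eif2ak2, which rose, all held an ISRE core. Oas1a, Bst2 and Irgm1, which were not called, held one too. A match is a description of the letters and not a site shown to be used.

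The wider interferon pathway was taken from lists of known interferon genes. Of 55 tested genes among 77 other interferon-induced genes, 27 fell and 2 rose in DKO against WT, and 19 fell and 1 rose in E2f8 KO against WT, with medians of -0.51 and -0.42. The share that fell was 49.1% in DKO, beside 17.6% of all genes, and 34.5% in E2f8 KO, beside 14.2%, and the shares that rose were 3.6% and 1.8%, beside 20.6% and 11.9%. The count for E2f8 KO was 9 without WT replicate 2 and 12 without E2f8 KO replicate 3. None was called by limma in Rb KO against WT, where 3 had an unadjusted p under 0.05. With the B cell marker mean as a covariate, 1 of the 55 was called lower in DKO against WT and none in E2f8 KO against WT. Cxcl9, a chemokine of the same receptor as Cxcl10 that depends on interferon gamma, fell by 2.92 ± 0.26 (SE, adjusted p = 1.09e-05) in DKO against WT, with signals of 5.79, 5.92 and 6.14 in DKO against 9.29, 9.05 and 8.25 in WT arrays. It thus went the opposite way to Cxcl10. With the covariate Cxcl9 gave -1.61 (adjusted p = 0.0604). Slfn9, a gene of the Schlafen family, rose by 3.53 ± 0.28 (SE, adjusted p = 4.27e-06) in DKO against WT, rose by 1.55 ± 0.28 (SE, adjusted p = 0.0027) in E2f8 KO against WT and rose by 1.98 ± 0.28 (SE, adjusted p = 0.00263) in DKO against E2f8 KO. The last call was lost without both arrays of low Xist (1.81, adjusted p = 0.0667), and the E2f8 KO call with the covariate, at 1.85 (adjusted p = 0.0637). With the covariate Slfn9 stayed called higher in DKO against WT, at 3.96 (adjusted p = 0.0031), and in DKO against E2f8 KO, at 2.11 (adjusted p = 0.000832). Its signals were 9.53, 10.31 and 10.22 in arrays labelled DKO, 8.03, 8.20 and 7.88 in those labelled E2f8 KO, 6.99, 7.01 and 6.34 in those labelled Rb KO, and 6.56, 6.93 and 5.98 in those labelled WT, so the order DKO, E2f8 KO and WT was that of Cxcl10. Gbp4 and Gbp9, guanylate-binding proteins like Gbp3, fell too: in DKO against WT, Gbp4 fell by 1.33 ± 0.17 (SE, adjusted p = 0.000117) and Gbp9 fell by 1.31 ± 0.15 (SE, adjusted p = 4.51e-05). Both calls were lost with the covariate, at -0.43 (adjusted p = 0.48) for Gbp4 and -0.89 (adjusted p = 0.129) for Gbp9.

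Among 10 tested genes of MHC class I presentation and the immunoproteasome, 5 fell and none rose in DKO against WT, where 17.6% of all genes fell and 20.6% rose. Psmb8, an immunoproteasome subunit, fell by 2.01 ± 0.30 (SE, adjusted p = 0.000263), though with the B cell marker mean as a covariate it gave -0.08 (adjusted p = 0.93), and B2m, the light chain of class I molecules, fell by 0.70 ± 0.08 (SE, adjusted p = 4.17e-05). With the covariate B2m stayed called lower, at -0.84 (adjusted p = 0.0163). Of 22 other signalling genes, 14 fell and 2 rose in DKO against WT (63.6% and 9.1%, beside the same 17.6% and 20.6%). Tlr9 and Tlr7, endosomal sensors of B cells and plasmacytoid dendritic cells, were among those that fell, and Tlr7 fell by 2.80 ± 0.41 (SE, adjusted p = 0.000232). With the covariate none of the 22 was called lower, and Tlr7 gave 0.11 (adjusted p = 0.912). Those that rose were Tbk1, the kinase that phosphorylates Irf3, and Socs3, a feedback inhibitor of cytokine receptors. Tbk1 rose by 1.59 ± 0.24 (SE, adjusted p = 0.000272) in DKO against WT and rose by 1.98 ± 0.24 (SE, adjusted p = 0.000943) in DKO against E2f8 KO. With the covariate these were 0.69 (adjusted p = 0.43) and 1.71 (adjusted p = 0.000645). Its signals were 9.41, 9.11 and 9.63 in DKO, 7.32, 7.48 and 7.42 in E2f8 KO and 8.16, 7.24 and 7.98 in WT arrays. Socs3 rose by 1.14 ± 0.16 (SE, adjusted p = 0.000165) in DKO against WT, and gave 0.92 (adjusted p = 0.147) with the covariate.

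Of 21 interferon genes, 7 had a probe set above the filter, and none was called against WT by limma in DKO, E2f8 KO or Rb KO. At an unadjusted p under 0.05 there were 0, 1 and 0 in that order. Ifng averaged 5.86 ± 0.27 in arrays labelled DKO, 5.99 ± 0.10 in those labelled E2f8 KO, 5.93 ± 0.07 in those labelled Rb KO and 5.89 ± 0.14 in those labelled WT (SD, n = 3 each). Ifna2 lay below the filter and was not tested. It averaged 5.91 ± 0.19 in arrays labelled DKO, 5.87 ± 0.32 in those labelled E2f8 KO, 5.42 ± 0.11 in those labelled Rb KO and 5.60 ± 0.15 in those labelled WT. Ifnl2 fell by 0.58 ± 0.20 (SE, adjusted p = 0.0369) in DKO against Rb KO, the 1 call of this list. That call was lost without E2f8 KO replicate 2, E2f8 KO replicate 3, Rb KO replicate 2, Rb KO replicate 3, DKO replicate 2 or DKO replicate 3 (differences between -0.67 and -0.51 over the 12 fits that each leave out 1 array, adjusted p up to 0.126), after quantile normalization (-0.50, adjusted p = 0.106) and without both arrays of low Xist (-0.52, adjusted p = 0.146).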

How the data were processed

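RNA of 12 sorted samples was measured on single-colour Affymetrix arrays, and the deposited log2 table, with a value for each probe set on each array, was the 1 file used. Per the submitters' processing notes the method was MAS5 (version not stated). The sources used here do not give the background correction or the normalization. The log2 scale was read from the values (1.07 to 14.84, array medians 6.22 to 6.35). Values were used as deposited. Of 35557 probe sets, 21789 name 1 gene, 1621 several and 12147 none. The lowest 40% by mean (below 5.84) were removed, and the brightest probe set per gene left 12980 genes. limma 3.58.1 in R 4.3.3 was fitted with 1 coefficient per label, a variance trend and two-sided p-values adjusted by Benjamini-Hochberg over the genes of each of 6 comparisons, called under 0.05. The script was tested on simulated data. Only the spread between these labelled biological replicates, pooled over the 4 groups, enters the p-values, and precision is limited by the number of arrays.

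The members and lists were chosen with earlier results of these data known. All members could be named. Of the other interferon lists, up to 5 called genes with the smallest p were named, and of markers the defining genes. Alternatives were no filter, 60% removed, quantile normalization, centred arrays, the mean of probe sets, no trend, array weights, only the groups compared, a replicate block, the B cell marker mean as a covariate, each array left out, and, added after the data were seen, both arrays of low Xist left out.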

Additional observations from a re-analysis of the deposited data

How the results depend on the processing

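Outside the B cell covariate, the 47 calls of members gave 1028 values under the alternatives, of which 935 kept direction and call, 93 lost the call and 0 turned, and 28 of the calls held throughout. Another 24 member results, not called in the main fit, were called in the same direction under an alternative, the covariate included. With the covariate 15 of the 47 held, 16 lost the call and 16 turned, and the cause was not tested. The list of B cell markers named Cd74, H2-Aa and H2-Ab1, genes of MHC class II presentation, and no fit was made without them. In E2f8 KO against WT the turned differences were 0.27 for Irf1, 0.35 for Irf8, 0.51 for Ddx58 and 0.20 for Trim30a. In DKO against WT they were -0.39 for Usp18, 0.36 for Irf1, 0.46 for Irf8, 1.31 for Ddx58, 0.032 for Parp14, and 0.72 for Trim30a. In DKO against Rb KO they were -0.48 for Usp18, 0.11 for Irf1, 0.42 for Irf8, 1.04 for Ddx58, 0.014 for Parp14 and 0.84 for Trim30a. Outside the 47, signs also turned for 2 member differences that became calls only with the covariate, to 1.61 for Stat2 in DKO against WT and 0.79 for Ddx58 in DKO against E2f8 KO, and for the called Tlr7, no member, to 0.11 in DKO against WT.

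Counts of members under the covariate were 0 higher and 2 lower in E2f8 KO against WT (3 and 9 without it), 5 lower in DKO against WT (13), 1 higher and 4 lower in DKO against Rb KO (5 and 11), and 3 higher in DKO against E2f8 KO (1). Of the other lists, 1 other interferon-induced gene was then lower in DKO against WT (27) and 0 in E2f8 KO against WT (19), with 1 MHC class I gene (5) and 0 signalling genes (14). Array weights gave 14 members and 30 other interferon-induced genes lower in E2f8 KO, 1 member lower in Rb KO (Irf7), and 4 lower in DKO against E2f8 KO (2). With only the groups compared, 2 were higher in DKO against Rb KO, and 2 higher and 4 lower in DKO against E2f8 KO. Without both arrays of low Xist, 3 were higher in DKO against Rb KO, and 0 higher and 0 lower in DKO against E2f8 KO. Without the filter, after quantile normalization or with the replicate block, 0 were higher in DKO against E2f8 KO, and with centred arrays 1 was lower.

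Leaving out 1 array at a time gave 2 to 3 higher and 4 (without WT replicate 2) to 12 lower in E2f8 KO against WT, 2 to 4 higher and 9 to 15 lower in DKO against WT, 2 (without Rb KO replicate 3) to 7 (without Rb KO replicate 1) higher and 9 to 13 lower in DKO against Rb KO, and 0 to 1 higher and 0 to 2 lower in DKO against E2f8 KO. Other interferon-induced genes lower numbered 20 to 29 in DKO against WT and 9 to 23 in E2f8 KO against WT. For arrays of the same replicate number, deviations from the group means correlated above 0.1 in 7 of 18 pairs (correlations between -0.38 and 0.57). With 3 arrays per group this cannot decide whether the numbers pair the samples, and the main fit took them as unpaired. With the replicate block, Cxcl10 in DKO against E2f8 KO lost its call (0.76, adjusted p = 0.051) and Ifit1 in DKO against Rb KO gained one (-0.96, adjusted p = 0.0165). Signals without scanner files give no measure of background, so dim probe sets such as those of Mx1 and Ifit3 could not be set against it.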
